A study of Caenorhabditis elegans with 2 samples.

Results

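The regions described here are the strongest ChIP-seq regions of one replicate that had no counterpart among the strongest of the other. In each replicate's list the nuclear regions were ranked by the deposited signal, and a strongest set was taken that held as many regions as the authors' list of reproducible peaks. A region of this set was kept if no base of it overlapped the exclusion set of the other replicate, its strongest regions in 2 times that number. The rule kept 474 regions of replicate 1, called replicate 1 only, and 423 regions of replicate 2, called replicate 2 only, which is 36.2% and 32.3% of the strongest sets. The remaining 837 regions of the strongest set of replicate 1 and 888 of that of replicate 2 are called shared. Members were chosen by measured signal ranks, so signals and ranks are given as a description only.

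The assay was ChIP-seq, the sequencing of DNA that comes down with a protein from crosslinked chromatin. Its target was ZTF-7, a zinc-finger protein of Caenorhabditis elegans that carried an eGFP tag. Both groups came from the same strain, OP332, which carries unc-119(tm4063) on chromosome III and the integrated transgene wgIs332, so the protein mapped was made from a transgene. Whole L4 larvae, in cultures of pooled sex and with no age given, made up 2 biological replicates of 1 group. The labels give fragments of 150 to 350 bp, and no control sample was analysed here. Each group of regions therefore comes from 1 library, and a p-value below compares lists of regions and not conditions. The depth of each library is unknown from the files used. Percent intervals are exact 95% binomial intervals, which cover counting error only, and neighbouring regions are not independent of each other.

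In chromatin immunoprecipitation a region that is bound in every sample is expected to rank high in each replicate, and reproducibility filters such as IDR (irreproducible discovery rate) compare the ranks of replicate lists. Regions that rank high in a single library can differ from shared ones in place or in base composition. Recovery of DNA in library preparation and sequencing is known to depend on its share of G and C bases, the GC content. Active promoters and the short genes for tRNAs and small nucleolar RNAs (snoRNAs, which guide chemical changes of ribosomal RNA) are places where many chromatin proteins are found in nematode maps.

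The sequences of replicate 1 only and replicate 2 only are shown for 5 and 4 of the strongest members, because base composition was the property in which the groups differed most. Each line gives the + strand of build ce11 (WBcel235), read from the RefSeq copy, over 50 bp on either side of the summit, with coordinates counted from 1 and with G and C in capitals.
replicate 1 only, pks-1 coding exon, chrX:5429501-5429601: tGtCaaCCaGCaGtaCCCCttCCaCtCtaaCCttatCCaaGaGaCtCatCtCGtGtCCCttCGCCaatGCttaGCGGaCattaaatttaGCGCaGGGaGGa
replicate 1 only, C30E1.9, chrX:16929722-16929822: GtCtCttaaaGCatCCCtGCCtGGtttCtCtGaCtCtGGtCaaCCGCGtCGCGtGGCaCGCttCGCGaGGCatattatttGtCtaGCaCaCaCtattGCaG
replicate 1 only, W03F8.4, chrIV:5183836-5183936: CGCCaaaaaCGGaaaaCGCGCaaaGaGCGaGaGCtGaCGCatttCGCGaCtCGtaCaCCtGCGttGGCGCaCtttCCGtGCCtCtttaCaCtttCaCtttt
replicate 1 only, eef-1B.1 and aco-2, chrIII:7973334-7973434: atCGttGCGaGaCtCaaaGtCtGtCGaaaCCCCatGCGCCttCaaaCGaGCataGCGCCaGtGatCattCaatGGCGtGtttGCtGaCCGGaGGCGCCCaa
replicate 1 only, hrpu-1, chrIV:15039673-15039773: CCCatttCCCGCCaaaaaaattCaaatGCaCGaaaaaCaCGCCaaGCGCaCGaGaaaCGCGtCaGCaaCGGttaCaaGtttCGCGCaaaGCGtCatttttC

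The same windows in replicate 2 only read as follows.
replicate 2 only, pmp-4, chrIV:17406254-17406354: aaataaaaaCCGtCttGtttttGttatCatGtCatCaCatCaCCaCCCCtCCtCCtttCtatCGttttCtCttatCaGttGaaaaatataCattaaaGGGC
replicate 2 only, cel-mir-52, chrIV:14034407-14034507: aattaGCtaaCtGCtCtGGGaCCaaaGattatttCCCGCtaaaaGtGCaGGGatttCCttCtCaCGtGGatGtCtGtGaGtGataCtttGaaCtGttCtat
replicate 2 only, C42C1.12 and hpo-12, chrIV:12282463-12282563: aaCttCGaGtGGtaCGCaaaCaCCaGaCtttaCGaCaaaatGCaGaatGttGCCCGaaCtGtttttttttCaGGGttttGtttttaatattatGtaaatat
replicate 2 only, ikke-1, chrIII:9051362-9051462: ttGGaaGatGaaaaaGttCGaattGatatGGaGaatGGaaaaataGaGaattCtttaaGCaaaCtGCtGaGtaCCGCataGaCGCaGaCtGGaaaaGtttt

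In these windows the GC content was 47.5% to 54.5% in the 5 regions of replicate 1 only. In the 4 of replicate 2 only it was 33.7% to 41.6%, with 41.6% at cel-mir-52. A further window of replicate 2 only, whose sequence is not reported here, had 47.5%, so the 2 groups met at that value. The microRNA gene cel-mir-52 belongs to the mir-51 family, which is broadly expressed in the worm. The region in a coding exon of pks-1, a polyketide synthase gene on X, had the highest signal of replicate 1 only, 119.7 at rank 13 of its list. It had no overlapping region anywhere in the replicate 2 list, although it overlapped an IDR peak of the pooled data. The next strongest member shown, 142 bp from the 5' end of the non-coding RNA gene C30E1.9, had a signal of 73.6 in replicate 1 and stood at rank 2939 in replicate 2. In replicate 2 only, the strongest member lay between T02D1.7 and pmp-4, a gene for a peroxisomal membrane protein, with a signal of 78.4 at rank 107 and rank 6304 in replicate 1.

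Some of the strongest members lay in short regions. W03F8.4 had a region of 130 bp with a signal of 72.2 at rank 57 of replicate 1 and no overlap in replicate 2. The inositol trisphosphate receptor gene itr-1 had one of 82 bp in a coding exon, with a signal of 58.1 and no overlap either. A region of 92 bp by cux-7 (52.03) and regions of the usual width by gmeb-1 (53.6) and nucb-1 (52.1) also had no overlap. Counting these, 10 of the 15 strongest members of replicate 1 only had no region in the replicate 2 list, and 3 of the 15 strongest of replicate 2 only had none in the replicate 1 list, which was not tested. In replicate 2 only the strongest members included regions by hpo-12 and C42C1.12 (70.03, rank 5786 in replicate 1), ikke-1 (68.5, rank 26777), pqn-27 (61.3, rank 2695), ufbp-1 (60.7, rank 4150) and misc-1 (58.5, rank 5852). Their ranks in the other list thus ran from just outside the exclusion set to near the end of the list.

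Signals are the peak caller's own and compare only within a list. In replicate 1 only they ran from 23.0 to 119.7 with a median of 27.9 and quartiles of 24.9 and 33.5, while shared regions of that list had a median of 34.6 and reached 290.7. In replicate 2 only they ran from 32.2 to 78.4 with a median of 37.2 and quartiles of 33.9 and 41.3, and shared regions of that list had a median of 44.5 and reached 397.6. The members thus sat more in the lower part of the strongest sets, with median ranks of 856.5 in replicate 1 only and 873 in replicate 2 only. Over the whole lists of 29973 and 29977 nuclear regions the median signals were 4.84 in replicate 1 and 11.8 in replicate 2.

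The edge of the rule was narrow in signal. The last 3 members of replicate 1 only had signals of 23.03, 23.03 and 23.02, and the first 3 regions left out for their own rank had 23.00, 23.00 and 22.99. The last 3 members of replicate 2 only had 32.21, 32.17 and 32.16, and the first 3 left out all had 32.16. On the side of the other list, the members of replicate 1 only nearest to the threshold stood at ranks 2630, 2664 and 2672 in replicate 2, and the nearest regions left out at 2616, 2619 and 2621. For replicate 2 only these ranks in replicate 1 were 2623, 2624 and 2625 among members and 2607, 2609 and 2619 among regions left out.

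Most members had a region in the other replicate's list, outside its exclusion set as the rule requires. Of replicate 1 only, 151 of 474 (31.9%, interval 27.7 to 36.3) had no overlapping region anywhere in the replicate 2 list. Of replicate 2 only, 61 of 423 (14.4%, interval 11.2 to 18.1) had none in the replicate 1 list. The 323 members of replicate 1 only with a region in the other list had a median rank of 5439 there, and the 362 of replicate 2 only a median of 5790.5. The list called on both replicates pooled lacked a region for 95 members of replicate 1 only (20.04%) and 9 of replicate 2 only (2.13%). An IDR peak of the authors was overlapped by 109 members of replicate 1 only (23.0%) and 139 of replicate 2 only (32.9%), against 93.9% of shared regions in the replicate 1 list and 93.8% in the replicate 2 list. Regions narrower than the usual width of their list (304 bp in replicate 1, 310 bp in replicate 2) numbered 6 and 7 among the members, against 91 and 89 among shared regions.

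GC content separated the groups most. Within 150 bp of the summit the median was 44.2% in replicate 1 only (quartiles 39.5 and 49.2) and 31.9% in replicate 2 only (quartiles 29.2 and 35.4). The upper quartile of replicate 2 only thus lay below the lower quartile of replicate 1 only. Shared regions lay between them, with medians of 40.5% in the replicate 1 list and 37.9% in the replicate 2 list, and the nuclear genome as a whole has 35.4%. A GC content of at least 40% was found in 350 of 474 regions of replicate 1 only (73.8%) and in 31 of 423 of replicate 2 only (7.33%). The difference of 66.5 percentage points (95% interval 61.5 to 70.8) passed the test, with an adjusted p of 3.43e-99 (two-sided Fisher's exact test, Benjamini-Hochberg adjusted over 36 tests, threshold 0.05). Each group also differed from the shared regions of its own list, where 52.8% and 36.6% had at least 40% GC. The differences were 21.03 points for replicate 1 only (adjusted p = 3.64e-13, exact test) and -29.3 points for replicate 2 only (adjusted p = 6.84e-32, exact test). Among all regions of the replicate 1 and 2 lists 32.5% and 9.37% had at least 40% GC. Replicate 2 only was thus near its whole list in this share, and replicate 1 only lay above its own.

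**Figure D1:**
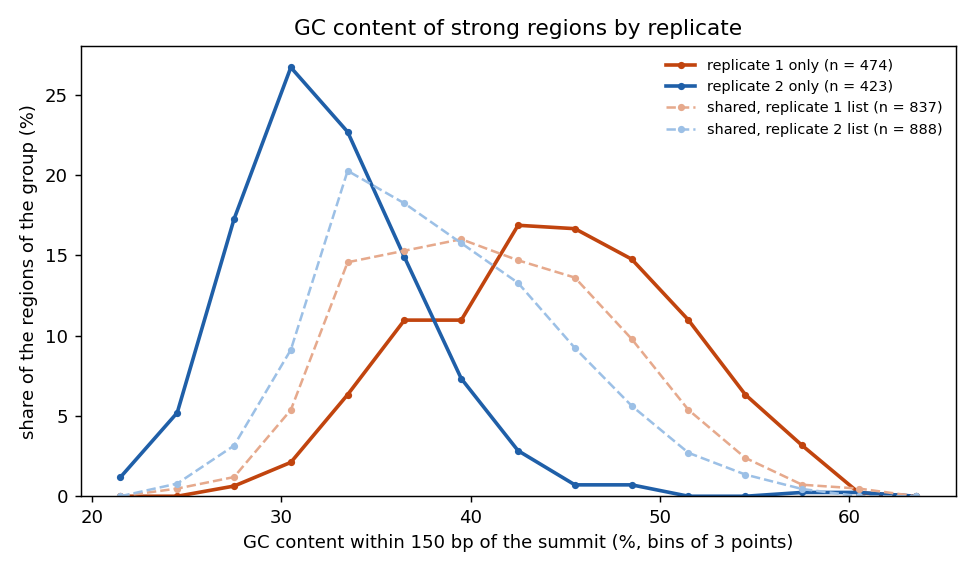
Share of the regions of each group (y axis, percent) by GC content within 150 bp of the summit (x axis, percent, bins of 3 points), for replicate 1 only, replicate 2 only and the shared regions of both lists. The 2 one-replicate groups lie on either side of the shared regions, with medians of 44.2% for replicate 1 only and 31.9% for replicate 2 only.

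The members with no region at all in the other list also differed in GC content between the groups. Their median GC content was 41.5% in replicate 1 only and 30.2% in replicate 2 only. At least 40% GC was found in 89 of 151 of them in replicate 1 only (58.9%) and 2 of 61 in replicate 2 only (3.28%), a difference of 55.7 points (adjusted p = 2.78e-14, Fisher's exact test). Against the shared regions the difference was 6.13 points in replicate 1 only (interval -2.52 to 14.4, adjusted p = 0.330, exact test), which did not pass, and -33.3 points in replicate 2 only (adjusted p = 3.67e-08, exact test). In replicate 1 only the 323 members that did have a region in the replicate 2 list had a median of 45.2%. The comparison of these subsets with shared regions was added after seeing the data. Members of replicate 1 only that overlapped an IDR peak had a median of 46.5%, and those that did not had 43.9%. In replicate 2 only these medians were 32.6% and 31.9%.

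The difference was local to the summit. In the 20 bp bins next to the summit the mean GC content was 51.1% and 51.3% in replicate 1 only and 35.3% and 35.7% in replicate 2 only. Shared regions reached 49.2% and 49.0% there in the replicate 1 list and 44.9% and 44.4% in the replicate 2 list. At 290 bp from the summit towards higher coordinates the 4 means lay between 34.96% and 36.7%, close to the genome. At 330 bp on that side replicate 2 only had 38.1%, above the 35.2% of replicate 1 only. At 350 bp on the other side these means were 37.5% and 35%. Replicate 1 only therefore had a GC peak at the summit about as high as that of its shared regions, while replicate 2 only had a small rise inside a GC-poor valley. Within 50 bp of the summit the medians were 50% in replicate 1 only and 33.7% in replicate 2 only, against 48.5% and 43.6% in shared regions of the replicate 1 and 2 lists. Within 500 bp they were 37.6% and 34.5%, against 36.6% and 36.1%.

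**Figure D2:**
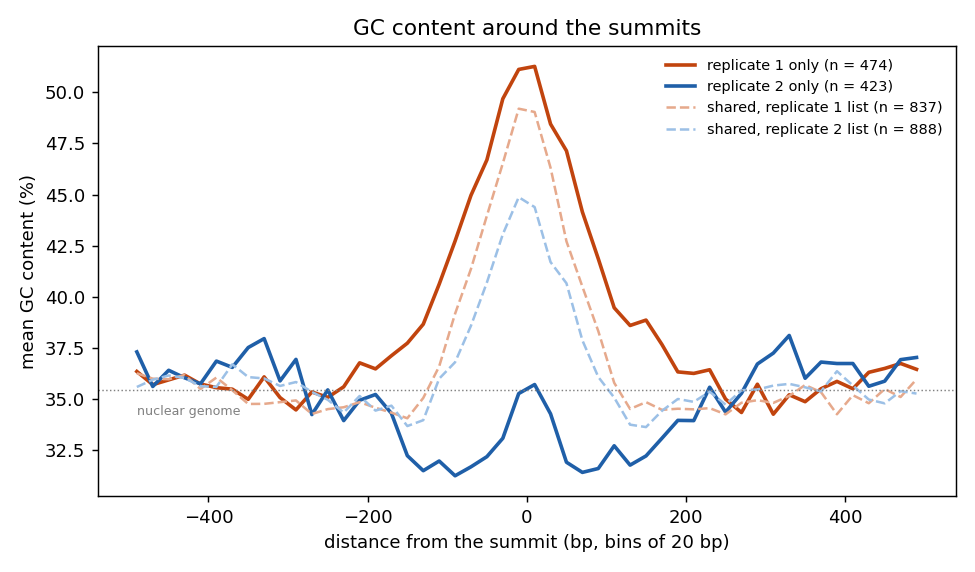
Mean GC content (y axis, percent) in bins of 20 bp by distance from the summit (x axis, bp) for replicate 1 only, replicate 2 only and the shared regions of both lists, with the nuclear genome as a dotted line. Next to the summit replicate 1 only reaches 51.3%, and replicate 2 only stays at 35.7%.

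Short sequence features differed along with the composition. A run of 8 A or 8 T (AAAAAAAA, or TTTTTTTT for the other strand) within 150 bp of the summit was found in 17.1% of replicate 1 only and 39.95% of replicate 2 only. Shared regions had it in 19.7% and 24.2% in the replicate 1 and 2 lists, and all regions of those lists in 28.0% and 45.8%. The repeat GAGAGA, searched on both strands, was found in 55.3% of replicate 1 only and 28.6% of replicate 2 only, against 45.04% and 39.98% of shared regions and 24.8% and 16.8% of all regions. The letters GTTCGANTC, which lie in the internal promoter (B box) of tRNA genes, were found on either strand in 6.12% of replicate 1 only and 2.84% of replicate 2 only, against 7.17% and 5.52% of shared regions and 1.60% and 1.26% of all regions. These shares are descriptions of letters in a window and not of factor binding.

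Both whole lists differed in GC content in the same direction, beyond the strongest regions. The median over all regions was 36.9% in the replicate 1 list and 30.6% in the replicate 2 list. By rank the replicate 1 medians were 41.9% in the strongest set, 39.9% in the rest of the exclusion set, and 38.2%, 37.2%, 36.2% and 35.2% in 4 steps further down the list. In replicate 2 they were 35.5%, 33.2%, 31.9%, 30.2%, 29.9% and 30.2% over the same steps, so that each list was highest in its strongest set and replicate 2 was lower at each step. Across the 12848 regions of replicate 1 with a region in the replicate 2 list, GC content and the log2 ratio of the rank in replicate 2 to that in replicate 1 had a Spearman correlation of 0.328. It was 0.261 over the 9365 outside the exclusion sets of both lists, where the rule picked nothing. These points share the same 2 libraries and are not independent. The part of library preparation or depth in this difference was not tested.

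In the strongest sets the share that belonged to a single replicate moved with GC content in opposite directions. In replicate 1 it was 13.8% of regions under 30% GC, 20% (39 of 195), 27.5%, 38.4% and 43.8% in the steps of 5 points above, and 56.6% at 50% and over. In replicate 2 it was 69.8% under 30% GC, then 42.4%, 23.7%, 11.8% and 3.92%, and 4.76% at 50% and over. The end bins are thin in places, with 29 regions under 30% GC in replicate 1 and 42 at 50% and over in replicate 2.

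**Figure D3:**
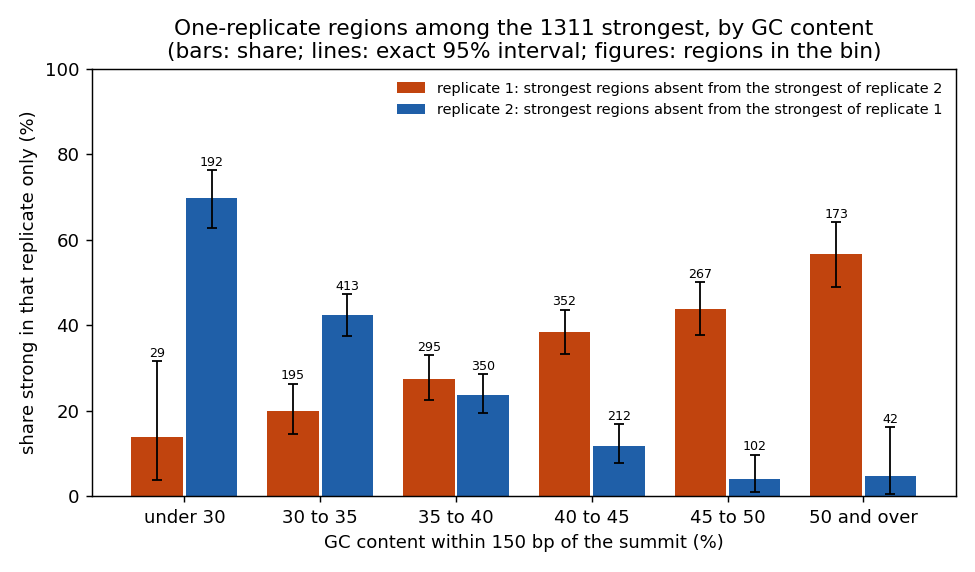
Share of the strongest set of each replicate that overlapped no region of the other's exclusion set (y axis, percent, with exact 95% intervals) by GC content within 150 bp of the summit (x axis, percent), with the number of regions above each bar. The share goes up with GC content in replicate 1, to 56.6%, and down in replicate 2, to 3.92% and 4.76% in the last 2 bins.

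In the reference itself, bases in lower case mark repeats and simple sequence. At least 50% of the bases within 150 bp of the summit were so masked in 20 regions of replicate 1 only (4.22%) and 116 of replicate 2 only (27.4%). The difference was -23.2 points (adjusted p = 2.37e-22, exact test). Shared regions had 9.08% in the replicate 1 list and 11.6% in the replicate 2 list, so replicate 1 only lay below its shared regions (adjusted p = 0.00287, exact test) and replicate 2 only above (adjusted p = 3.25e-11, exact test). Among all regions 15.01% of the replicate 1 list and 40.1% of the replicate 2 list were masked to that degree. The program that made the mask is not given in the sources used here.

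Chromosome X and tRNA genes were places where the groups differed. On X lay 124 members of replicate 1 only (26.2%) and 72 of replicate 2 only (17.02%), a difference of 9.14 points (95% interval 3.74 to 14.4, adjusted p = 0.00325, exact test). X makes up 17.7% of nuclear length and held 21.4% and 19.5% of all regions of the replicate 1 and 2 lists. Replicate 1 only was close to its shared regions (26.8%, difference -0.60 with an interval of -5.47 to 4.44), and replicate 2 only lay below its own (25.2%, adjusted p = 0.00287, exact test). The outer parts of the autosomes (the first and last of 3 equal lengths), which hold more repeats and fewer conserved genes than the centres, had 39.9% of replicate 1 only and 47.8% of replicate 2 only (adjusted p = 0.0330, exact test). Shared regions there were 40.6% and 41.2% in the replicate 1 and 2 lists, and all regions of those lists 46.0% and 52.1%. These shares count regions on X, which cannot lie there. Over autosomal members alone they were 54% of 350 in replicate 1 only and 57.5% of 351 in replicate 2 only, and the difference of -3.55 points did not pass (interval -10.8 to 3.79, adjusted p = 0.501, exact test, added after seeing the data).

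The shares on X were also split by GC content. Among members under 40% GC, 20.97% of 124 in replicate 1 only and 17.1% of 392 in replicate 2 only lay on X, and the difference of 3.88 points did not pass (adjusted p = 0.559, exact test). Among those of at least 40% GC the shares were 28.0% of 350 and 16.1% of 31 (adjusted p = 0.569, exact test). The gap at 40% GC and over was wider than over all members (26.2% and 17.02%). Replicate 2 only held 31 such regions, so the loss of the call there decides little. This split was added after seeing the data, and the part of GC content in the difference between the groups was not tested.

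By chromosome, replicate 1 only was densest on X, with 6.998 members per Mb, and had 5.31 on I, 4.64 on III, 4.38 on II, 3.94 on IV and 3.35 on V. Replicate 2 only was densest on III, with 5.66 members per Mb, and had 4.52 on IV, 4.18 on I, 4.06 on X, 3.80 on II and 3.49 on V. Chromosome V was thus the lowest in both groups, and the order of the others differed.

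The GC difference was present in each class of place that was split. Near a coding 5' end the median GC content was 42.5% in replicate 1 only and 31.9% in replicate 2 only, and away from one it was 46.2% and 32.2%. On X the medians were 45.02% and 33.2%, in introns 45.8% and 31.4%, by tRNA genes 44.5% and 37.5%, by snoRNA genes 47.3% and 31.6%, and in coding exons 40.2% and 35.7%. Of the places given here the gap was smallest in coding exons, with 16 and 6 members, and by tRNA genes.

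Transfer RNA genes lay by members of replicate 1 only more often. A tRNA 5' end was within 1000 bp of the summit of 51 regions of replicate 1 only (10.8%) and 18 of replicate 2 only (4.26%), a difference of 6.50 points (95% interval 3.07 to 9.98, adjusted p = 0.00108, exact test). Shared regions had 11.7% and 10.7% in the replicate 1 and 2 lists, so that replicate 2 only lay below its own (adjusted p = 0.000330, exact test), and replicate 1 only did not differ past the threshold (-0.95 points, interval -4.37 to 2.75, adjusted p = 0.756). All regions of those lists had 2.47% and 2.12%, so both groups lay above the lists they came from. Among members under 40% GC the shares were 5.65% and 2.81% (adjusted p = 0.301, exact test), and among the others 12.6% and 22.6% (adjusted p = 0.5004, exact test). Of 612 nuclear tRNA genes 65 had such a summit in replicate 1 only and 34 in replicate 2 only, against 2.01% and 1.55% of all nuclear genes other than piRNA genes. By amino acid, glycine tRNA genes had 9 in each group of 55 genes, proline 6 and 0 of 42, lysine 7 and 2 of 46, tryptophan 3 and 0 of 12 and glutamine 2 and 5 of 27. The strongest in replicate 1 only was C02F12.t1, a methionine tRNA gene 46 bp from the summit, with a signal of 57.6 and rank 3599 in replicate 2. In replicate 2 only it was Y57G11B.t1, a glycine tRNA gene with a signal of 62.6 and no region in the replicate 1 list. Near-identical tRNA copies can share reads, so which copy gave a region is uncertain.

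The snoRNA genes had a 5' end by 28 members of replicate 1 only (5.91%) and 12 of replicate 2 only (2.84%), and this difference missed the threshold (3.07 points, interval 0.345 to 5.84, adjusted p = 0.0558, exact test). Replicate 2 only lay below its shared regions (6.53%, adjusted p = 0.0115, exact test). All regions of the replicate 1 and 2 lists had 1.54% and 1.33%, so both groups lay above the lists they came from. Of 346 snoRNA genes 29 and 12 were counted. The strongest were Y67A10A.14 (signal 58.9, summit 50 bp away) and T10B9.11 (55.1) in replicate 1 only, and F17C11.24 (58.6) and ZK546.18 (51.5) in replicate 2 only. Summits of replicate 1 only lay 50, 44, 87 and 28 bp from the 5' ends of its 4 strongest snoRNA genes, and those of replicate 2 only 325, 486, 151 and 450 bp.

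Both groups lay by a 5' end of any gene less often than shared regions did, and the 2 groups did not differ from each other past the threshold. A protein-coding 5' end was within 1000 bp of 53.0% of replicate 1 only and 59.1% of replicate 2 only (difference -6.15 points, interval -12.6 to 0.359, adjusted p = 0.108, exact test). Shared regions had 62.0% and 63.5% in the replicate 1 and 2 lists. The difference from shared regions passed in replicate 1 only (-9.05 points, adjusted p = 0.00413, exact test) and not in replicate 2 only (-4.41 points, adjusted p = 0.178). With any 5' end other than those of piRNA genes the shares were 75.1% and 70.2% (adjusted p = 0.165, exact test). Here both groups lay below their shared regions, 81.1% (adjusted p = 0.0221, Fisher's exact test) and 79.5% (adjusted p = 0.00113). All regions of the 2 lists had 54.2% and 48.8%, so members of both groups were still near 5' ends more often than the lists they came from. Among members under 40% GC the share near a coding 5' end was 72.6% in replicate 1 only and 59.9% in replicate 2 only. It was 67.5% and 47.5% among members with no region in the other list, where the difference turned to 20.01 points (adjusted p = 0.0363, exact test).

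Introns held 22.6% of replicate 1 only and 25.1% of replicate 2 only, against 15.9% and 15.7% of shared regions in the replicate 1 and 2 lists. All regions of those lists had 30.6% and 39.7% in introns, so members lay below the lists they came from. Both differences from shared regions passed (adjusted p = 0.00664 and 0.000390, exact test). Intergenic summits made up 58.4% and 59.6%, against 66.9% and 68.9% of shared regions (adjusted p = 0.00551 and 0.00287, exact test). All regions of the 2 lists had 40.8% and 45.3%, so members lay above the lists they came from here. Coding exons held 16 members of replicate 1 only (3.38%) and 6 of replicate 2 only (1.42%), which did not differ past the threshold (adjusted p = 0.123, exact test). Among all regions of the replicate 1 and 2 lists the shares were higher, 17.3% and 5.53%. Replicate 1 only had more than its shared regions (1.19%, adjusted p = 0.0221, exact test), but 4 of the 16 lay in a single gene, lin-35, and without the members in it the difference no longer passed (adjusted p = 0.116). Other exons held 15.6% and 13.9%.

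**Figure D4:**
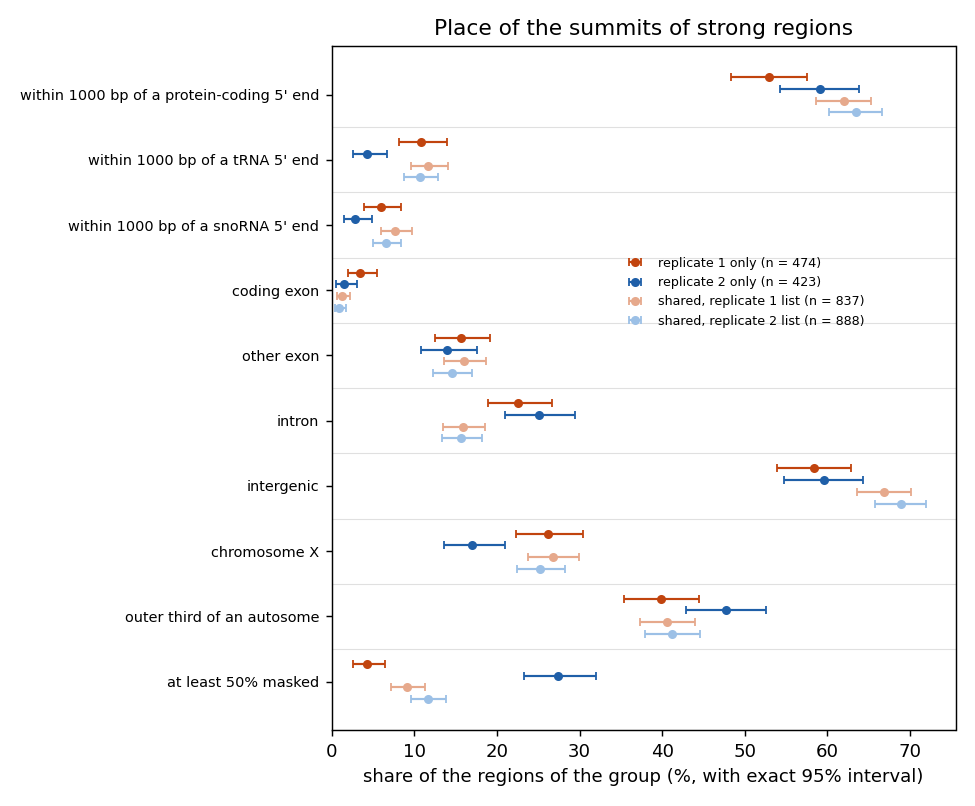
Share of the regions of each group (x axis, percent, points with exact 95% intervals) in 10 classes of place (y axis) for replicate 1 only, replicate 2 only and the shared regions of both lists. Replicate 2 only stands apart on X (17.02%), by tRNA genes (4.26%) and in masked sequence (27.4%), and both one-replicate groups have more introns than shared regions.

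The retinoblastoma homologue gene lin-35, a repressor of cell cycle and germline genes, held the largest cluster of members, a gene singled out after its values were seen. Its 7929 bp on chromosome I (5807709 to 5815637, + strand) held 14 regions of the replicate 1 list, of which 12 were in its exclusion set and 7 in its strongest set. All 7 were members of replicate 1 only, 4 in coding exons and 3 in introns, with GC contents of 31.6% to 41.5%. Their signals, in order along the gene, were 23.9, 31.0, 30.3, 46.4, 40.6, 75.5 and 28.3, against a list median of 4.84. The replicate 2 list held 4 regions in the gene, at ranks from 4577 to 25650 with signals from 8.42 to 19.96, and no region beyond 2628 bp from the 5' end. It held instead a region 133 bp upstream of the 5' end with a signal of 39.1 at rank 744, which was a member of replicate 2 only and stood at rank 10884 in replicate 1. Replicate 1 thus ranked stretches of the gene body high, and replicate 2 a region upstream of the gene. Of the 7 members of replicate 1 only, 4 had no region in the replicate 2 list, and 2 overlapped an IDR peak of the pooled data.

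**Figure D5:**
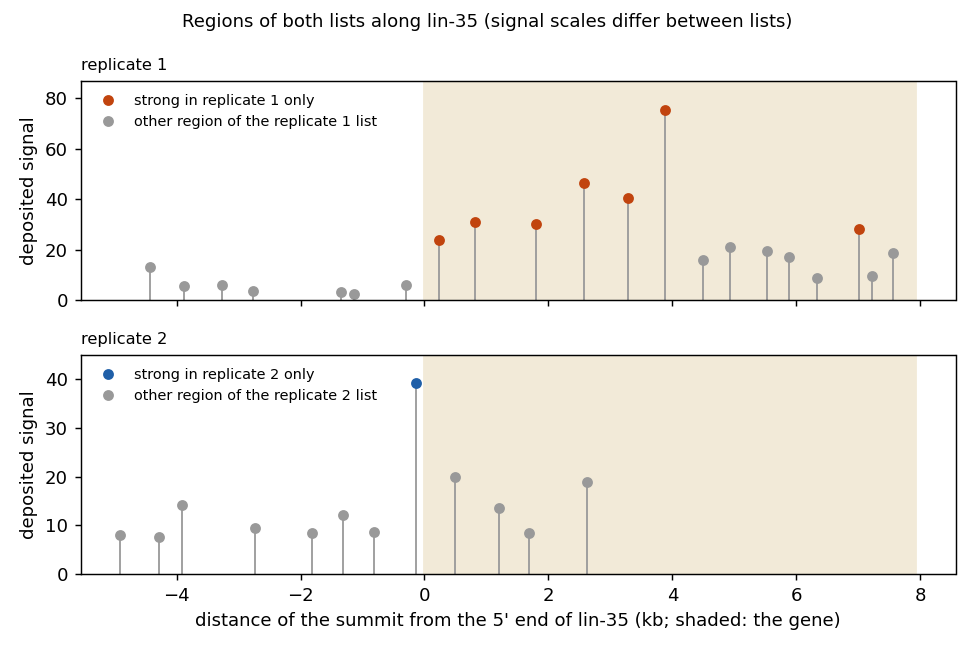
Deposited signal (y axis, on each list's own scale) of the regions of replicate 1 (top) and replicate 2 (bottom) by distance of the summit from the 5' end of lin-35 (x axis, kb), with the gene shaded and members coloured. Replicate 1 has 14 regions along the gene, up to 75.5, and replicate 2 has its strongest one 133 bp upstream, at 39.1.

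Other clusters, also singled out after their values were seen, were smaller. In windows of 20000 bp replicate 1 only had 4 members on X between 6741586 and 6749497, a stretch with mdl-1 and abts-4, each with a lower-ranked region in the replicate 2 list. Replicate 2 only had 5 on chromosome II by pro-1 and in mnk-1, a kinase gene, 3 by tent-5 on chromosome I, and 3 on chromosome IV by cel-mir-52. The 3 by cel-mir-52 had no region in the replicate 1 list. The 474 members of replicate 1 only fell in 432 such windows and the 423 of replicate 2 only in 377. Summits of the 2 groups lay within 1000 bp of each other for 13 members of replicate 1 only and 12 of replicate 2 only.

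Members lay by genes of many functions, and their share among all genes sets the scale. At 1000 bp or less from the 5' end, a summit was found for 321 of 19973 protein-coding genes (1.61%) in replicate 1 only and 325 (1.63%) in replicate 2 only. Over all nuclear genes with piRNA genes the shares were 1.54% and 1.28%. Gene lists are given by counts alone.

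Genes of the translation machinery had some of the higher counts for their number. Of 50 genes for proteins of the large ribosomal subunit 6 lay by replicate 1 only and 2 by replicate 2 only, against 18 and 20 by shared regions of the replicate 1 and 2 lists. For the 32 small subunit genes the counts were 5 and 2, against 12 and 14. In replicate 1 only they were led by rpl-27 (signal 51.3, rank 2690 in replicate 2), rpl-41.1 and rpl-41.2 (1 region, 37.6), rpl-38 (36.7), rps-19 (49.2), rps-5, rps-4 and rps-25. The summits by rpl-27 and rpl-41.1 lay 728 and 820 bp downstream of the 5' end, in intergenic sequence. For the other genes of this group named here the summit lay 273 to 403 bp upstream. In replicate 2 only rps-15 was the strongest, with a signal of 58.3 and no region in replicate 1. Translation factors had 2 and 1 of 41 genes, among them eef-1B.1, an elongation factor subunit, whose region (signal 70.7 in replicate 1, rank 3018 in replicate 2) it shared with aco-2, the mitochondrial aconitase gene. Ribosome biogenesis genes had 3 and 1 of 41, with wdr-46 (signal 53.7), fib-1 for the snoRNA-guided methyltransferase fibrillarin (38.7) and nol-10 (34.6) in replicate 1 only.

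Counts of mitochondrial and protein folding genes were higher by shared regions than by members. Shared regions were also more numerous, 837 and 888 against 474 and 423 members, and the counts were not scaled to this. For mitochondrial ribosomal protein genes of replicate 2 the counts were close, 6 by shared regions and 5 by members. Shared regions of the replicate 1 and 2 lists had 7 and 6 mitochondrial ribosomal protein genes and 13 and 12 oxidative phosphorylation genes. For chaperones they had 17 and 18. Of all protein-coding genes 1.61% lay by replicate 1 only and 1.63% by replicate 2 only. Genes of mitochondrial ribosomal proteins had 0 of 70 in replicate 1 only and 5 in replicate 2 only by 4 regions, with mrpl-35 (signal 42.7), mrpl-1 and mrps-24 (1 region, 38.3) and mrps-35 (36.6). These 3 regions stood at ranks 3004 to 3289 in replicate 1, not far outside its exclusion set. Oxidative phosphorylation genes had 3 and 2 of 60, with mev-1, a subunit of succinate dehydrogenase, and the ADP/ATP carrier gene ant-1.1 at signals of 33.6 and 32.1 in replicate 1 only. Chaperones had 3 and 2 of 67, with hsp-3, the BiP-type chaperone of the endoplasmic reticulum (51.3 in replicate 1 only, rank 2777 in replicate 2) and hsp-6, the mitochondrial HSP70 (56.2 in replicate 2 only, rank 3438 in replicate 1). The V-ATPase, the proton pump of lysosomes and other acidic compartments, had 3 and 0 of 21, namely vha-12 (39.5), vha-13 (28.7) and vha-15 (27.8). Shared regions had 2 and 0 of these 21.

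Genes of the nucleus and of RNA processing were found in both groups. Histones had 4 and 2 of 81, with htz-1, which encodes the H2A.Z variant, at a signal of 58.3 in replicate 1 only and at rank 23159 in replicate 2. The same region lay 147 bp from wapl-1, a cohesin release factor gene. DNA replication and cell cycle genes had 3 and 1 of 71, with top-2 for topoisomerase II (38.9), cdc-6 for an origin licensing factor (34.8) and cdk-7 (30.9) in replicate 1 only. Splicing genes had 3 and 4 of 63, with prp-8, the core protein of the spliceosome, at 24.2 in replicate 1 only and the SR protein gene rsp-3 at 49.4 and rnp-6 at 44.7 in replicate 2 only. The hnRNP U homologue gene hrpu-1 lay by a narrow region of 86 bp in replicate 1 only, with a signal of 64.4 and no overlap in the replicate 2 list.

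Lists of regulation and stress response were counted next. All protein-coding genes had shares of 1.61% in replicate 1 only and 1.63% in replicate 2 only. Nuclear hormone receptor, detoxification and F-box genes had 1.09%, 0.526% and 0.311% in replicate 1 only. In replicate 2 only they had 1.82%, 1.58% and 1.55%, near the share of all protein-coding genes. Nuclear hormone receptors had 3 and 5 of 274, with nhr-12 (31.8) in replicate 1 only and nhr-69 (43.9) and nhr-8 (42.4) in replicate 2 only. Detoxification genes had 1 and 3 of 190, with ugt-22 (45.4), gst-9 (38.4) and cyp-43A1 (37.2) in replicate 2 only. F-box genes had 1 and 5 of 322, led by fbxa-79 (56.7) in replicate 2 only. Proteasome genes had 2 and 2 of 33, which is 6.06% in each group. Chemoreceptor genes had 1 and 0 of 1312. The lists of intestine (29 genes), body wall muscle (28), neuron (25), hypodermis (15) and germline genes (42) had 0 in both groups. At the shares of all protein-coding genes, lists this short can hold none, so these counts say little. Shared regions had 0 and 1 of the intestine genes, 2 and 2 of the germline genes, and 0 of the other lists.

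Non-coding genes other than tRNA and snoRNA genes were counted by biotype. Of all nuclear genes other than piRNA genes 2.01% lay by replicate 1 only and 1.55% by replicate 2 only. MicroRNA genes had 6 and 9 of 261 (2.30% and 3.45%), by 5 and 6 regions. A member of each group lay within 1000 bp of cel-mir-52, 957 bp away with a signal of 34.5 in replicate 1 only and 449 bp away with a signal of 70.5 in replicate 2 only, neither with a region in the other list. Spliced leader genes, whose product supplies the start of trans-spliced mRNAs, had 3 and 2 of 30, by only 2 regions in each group. The piRNA genes, which encode germline small RNAs in large clusters on chromosome IV, had 90 of 15363 by 22 regions of replicate 1 only and 113 by 28 of replicate 2 only. Other non-coding RNA genes had 195 and 93 of 7764.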

How the data were processed

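Each replicate of the ZTF-7 ChIP-seq has a list of 30000 regions. The strongest set held 1311 regions, the number of IDR peaks deposited, and the exclusion set 2622, with 897 members of 2622 in all. Members, gene lists and tests were chosen with earlier results of these data known. The deposited signal is the peak caller's own value per region, and q-values were deposited as −log10 q with a ceiling of 2.77 in replicate 1 (4989 nuclear regions) and 1.98 in replicate 2 (781 regions), so regions were ranked by signal. Peak caller, aligner, IDR cutoff, masking program and read numbers: not given in the sources used here.

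Build ce11 is WBcel235. Genes came from Ensembl release 115, and sequence and lower-case masking from the RefSeq copy. A summit counted for each gene with a 5' end within 1000 bp. Place, masking and GC classes (12) in 3 comparisons were compared by two-sided Fisher's exact tests, Benjamini-Hochberg adjusted over 36 tests at 0.05. Difference intervals are Newcombe 95% intervals. The test code was checked on simulated region classes with known differences. Genes named are those by the 15 strongest members of each group and the 4 strongest of each of the 36 lists with at least 3 genes, and sequences are those of the 5 strongest members outside chromosome I, of which 1 in replicate 2 only is not reported here. Software was scipy 1.17.1, numpy 2.4.6 and pandas 2.3.3 in Python 3.11.15, with matplotlib 3.10.9. Alternatives changed the exclusion set, list length, overlap, window, GC width, thresholds and shared regions, or used the ce10 lists. The GC strata, the usual-width regions, lower ranks, the omission of lin-35, autosomal regions alone and members with no region in the other list set against the shared regions were added after seeing the data.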

Additional observations from a re-analysis of the deposited data

Results flagged for a closer look

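Mitochondrial regions stood outside the comparisons, which took nuclear regions only. The replicate 1 list held 27 of them and the replicate 2 list 23, with median signals of 93.4 and 481.4, far above the list medians of 4.84 and 11.8. Had they been ranked with the rest, 24 in replicate 1 and 23 in replicate 2 would have been in the strongest sets, of which 6 and 4 overlapped no region of the other's exclusion set.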

How the results depend on the processing

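GC content kept its direction and call in replicate 1 only minus replicate 2 only (21.6 to 75.5 points) and in replicate 2 only minus shared (-43.5 to -6.23) under every alternative run. Of 443 alternative values 329 kept direction and call or size. Differences below are in percentage points of each class. Stricter sets hold fewer regions, and the cause of a lost or turned call was not tested. No paired analysis was possible because both replicates belong to 1 group. Leaving out a replicate gives no value, since the rule needs both lists, and ranking by score or q-value was not run because these are constant among the strongest regions of replicate 1.

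With an exclusion set as large as the strongest set, replicate 2 only had 665 regions. Replicate 1 only minus replicate 2 only was -6.55 for coding 5' ends and 3.30 for snoRNA, both now past the threshold. Minus shared, replicate 1 only had 0.704 for tRNA and 0.712 for other exons, both turned, and replicate 2 only 5.76 for outer parts, no longer past it. With an exclusion set of 4 times that size, replicate 2 only had 268 regions. Replicate 1 only minus replicate 2 only turned to 0.262 for coding 5' ends and 1.29 for intergenic, passed at 10.6 for any 5' end and -10.3 for introns, and lost the call at 5.84 for X and -8.68 for outer parts. Minus shared, replicate 1 only lost the call for coding 5' ends (-4.29), any 5' end (-4.49), introns (0.664), intergenic (-5.25) and masked (-1.81) and turned for other exons (1.82) and outer parts (1.77), while replicate 2 only passed for coding 5' ends (-8.63).

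With the whole list as the exclusion set the groups had 151 and 61 regions, and the shared regions took in all others of the strongest sets, members among them, as they did in part with the set of 4 times the size. Between the groups coding 5' ends (20.01), other exons (-0.499) and intergenic (8.82) turned, any 5' end passed (20.5), and tRNA (8.29) and X (9.09) lost the call. Against shared, replicate 1 only turned for coding 5' ends (9.96), any 5' end (4.33), other exons (0.0320), introns (-2.73), GC (-1.66) and masked (2.20) and lost intergenic (-1.05). Replicate 2 only turned for other exons (2.15) and lost tRNA (-7.32), snoRNA (-3.88), introns (9.63), intergenic (-12.4), X (-8.21) and outer parts (13.02).

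With both sets cut to 0.5 of their size the groups had 235 and 227 regions. Between them introns turned (1.10), and tRNA (4.46), X (9.57) and outer parts (-4.99) lost the call. Against shared, replicate 1 only turned for any 5' end (1.84), tRNA (0.588), other exons (2.84), X (0.177) and outer parts (3.37) and lost coding 5' ends (-3.37), coding exons (1.55), introns (4.44) and intergenic (-8.82). Replicate 2 only turned for other exons (3.94) and lost any 5' end (-7.38), tRNA (-2.97), snoRNA (-5.09), introns (4.77), intergenic (-9.10), X (-6.76) and outer parts (5.11).

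A reciprocal overlap of 50% gave a call for any 5' end between the groups (6.34) and ended those for outer parts (-6.24), any 5' end of replicate 1 only (-4.85), snoRNA (-2.70) and outer parts (4.80) of replicate 2 only. The snoRNA difference between the groups passed with summits within 300 bp (3.29), windows of 500 bp (3.64) and 2000 bp (3.998) and regions of usual width (3.34). Any 5' end passed at 500 bp (9.53), and coding 5' ends at 2000 bp (-7.42). Usual width turned X of replicate 1 only (0.277) and ended outer parts of replicate 2 only (6.32). Shared regions strong in both lists turned other exons of replicate 1 only (0.108). At 90% masked the difference between the groups was -0.0254, with 0.211 (turned) and 0.236 against shared. Over autosomal regions alone the outer parts lost the call between the groups (-3.55) and for replicate 2 only (2.43). Members with no region in the other list, set against the shared regions as first defined, lost the GC call of replicate 1 only (6.13). Without lin-35 the coding exon difference of replicate 1 only was 1.37.

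Regions of at least 40% GC turned tRNA between the groups (-10.01) and, for replicate 2 only, coding 5' ends (1.00), tRNA (3.20) and masked (-0.308). They ended the calls for X (11.9) and masked (0) between the groups, coding 5' ends (-4) and masked (-0.905) of replicate 1 only and snoRNA (-4.93) and X (-16.2) of replicate 2 only. Regions under 40% GC turned coding 5' ends (12.6) and snoRNA (-0.132) between the groups and tRNA (1.09) and X (0.968) of replicate 1 only. They ended tRNA (2.84) and X (3.88) between the groups, coding 5' ends (-2.86) and masked (-2.10) of replicate 1 only and tRNA (-2.88), snoRNA (-1.18) and X (-4.04) of replicate 2 only, whose coding 5' ends passed (-12.9).

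Given to the nearest 5' end only, 194 protein-coding genes were counted in replicate 1 only, and 15 tRNA and 5 snoRNA genes in replicate 2 only. The 500 bp window counted 6 snoRNA genes and the 2000 bp window 508 protein-coding genes in replicate 2 only.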
